A study of Mus musculus with 2 samples.

Results

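Wnt proteins are secreted, lipid-bearing ligands that signal between neighbouring cells. They bind Frizzled receptors on the cell surface, and in the branch that stabilises beta-catenin the coreceptors Lrp5 and Lrp6 are engaged at the same time. R-spondins do not start that signal themselves. They bind Lgr4, Lgr5 or Lgr6 and hold back the ubiquitin ligases Znrf3 and Rnf43, which remove Frizzleds from the surface, so more receptor stays there. In the mammary gland, Wnt4 and the R-spondins are known as local signals that act downstream of ovarian hormones on epithelial growth, and Lgr5 and Lgr6 have been used to mark groups of epithelial cells.

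The genes described here are all those of the deposited gene list whose symbol is a Wnt, a Frizzled (Fzd), an R-spondin (Rspo), Lgr4, Lgr5, Lgr6, Lrp5 or Lrp6. The rule gave 38 of 33943 genes, namely 19 Wnt ligands, 10 Frizzleds, 4 R-spondins, 3 Lgr receptors and 2 Lrp coreceptors. They were chosen by name and not by their values.

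Nuclei came from the inguinal mammary fat pad of 8 lactating mice, taken on postnatal day 11 with the lymph nodes removed, and were pooled into 1 droplet library that counts RNA molecules by unique molecular identifiers (UMIs). The labels name 4 animals of a floxed group (Oxtrflox, in which the oxytocin receptor gene Oxtr is floxed) and 4 of a group in which Oxtr is removed in adipocytes (OxtrΔAd). All dams were bred at 8 weeks of age on a chow diet, and the litters listed in the labels are 7 of 5 pups and 1 of 3, not tied to animals. The labels do not name the promoter that drives the recombinase. Hashtags, DNA-barcoded tags added to each animal's nuclei, assign a nucleus to its animal; those named WT were taken as the floxed group, and every comparison of genotypes rests on that.

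After filtering, 20854 of 21805 barcodes remained, with a median of 4212 UMIs. Of these, 13057 carried the hashtag of 1 of the 8 animals, which gave 1200 to 1991 nuclei and 5842922 to 10964520 UMIs per animal. Nuclei were clustered without the 38 genes and named by marker genes, so a name below means a type's likeness by markers. In all, 9 groups held enough nuclei for tests: secretory luminal cells (9723 assigned nuclei), myoepithelial cells (936), Lama2 and Pi16 fibroblasts (533 and 170, each named for a leading or marker gene), adipocytes (367), myeloid cells with high Klra2 (219), vascular endothelial cells (202), F13a1 macrophages (187) and luminal progenitors (168). Oxtr itself went against the label in adipocytes: it had 1 UMI in each of the 4 animals labelled floxed (4.40 to 6.23 CPM, defined below) and 3 to 5 UMIs in those labelled knockout (12.5 to 22.3 CPM). In myoepithelial nuclei, on 57 to 178 UMIs per animal, Oxtr lay at 221 to 260 CPM in animals labelled floxed. Those labelled knockout were lower there, at 178 to 205 CPM without overlap. The cause of either difference was not tested. Whether the Oxtr reads lie in the deleted part of the gene is not given, so the groups are called by their labels throughout. Levels are in CPM, the UMIs of a gene per 1000000 UMIs of all genes in an animal's nuclei of a type. They are not corrected for gene length and are therefore compared between cell types, never between genes.

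Of the 38 genes, 37 had at least 1 UMI in the clustered nuclei, and Wnt7a had none. Of these, 15 reached 50 UMIs over all animals in their highest cell type and are described individually, and 23 stayed below. Among the 9 tested types, myoepithelial nuclei were the highest for 9 of the 15, namely Wnt4, Wnt5a, Wnt6, Wnt9a, Fzd2, Fzd3, Fzd7, Lgr5 and Lgr6. Vascular endothelial nuclei were highest for Fzd6 and Lrp5. Luminal progenitors (Wnt5b), adipocytes (Fzd4), F13a1 macrophages (Lrp6) and secretory luminal nuclei (Lgr4) were each highest for 1 gene. These counts depend on depth, since 50 UMIs is a lower CPM in types with more UMIs. Myoepithelial nuclei held 3930065 UMIs, Pi16 fibroblasts 838853 and luminal progenitors 704755. Wnt5a thus entered at a pooled 14.0 CPM (55 UMIs) in myoepithelial nuclei, while Wnt2 at 57.2 CPM (48 UMIs) in Pi16 fibroblasts did not. The share of all genes with 50 UMIs that were highest in myoepithelial nuclei was not counted. The 9 of 15 is therefore a description and not a trait of these genes.

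**Figure D1:**
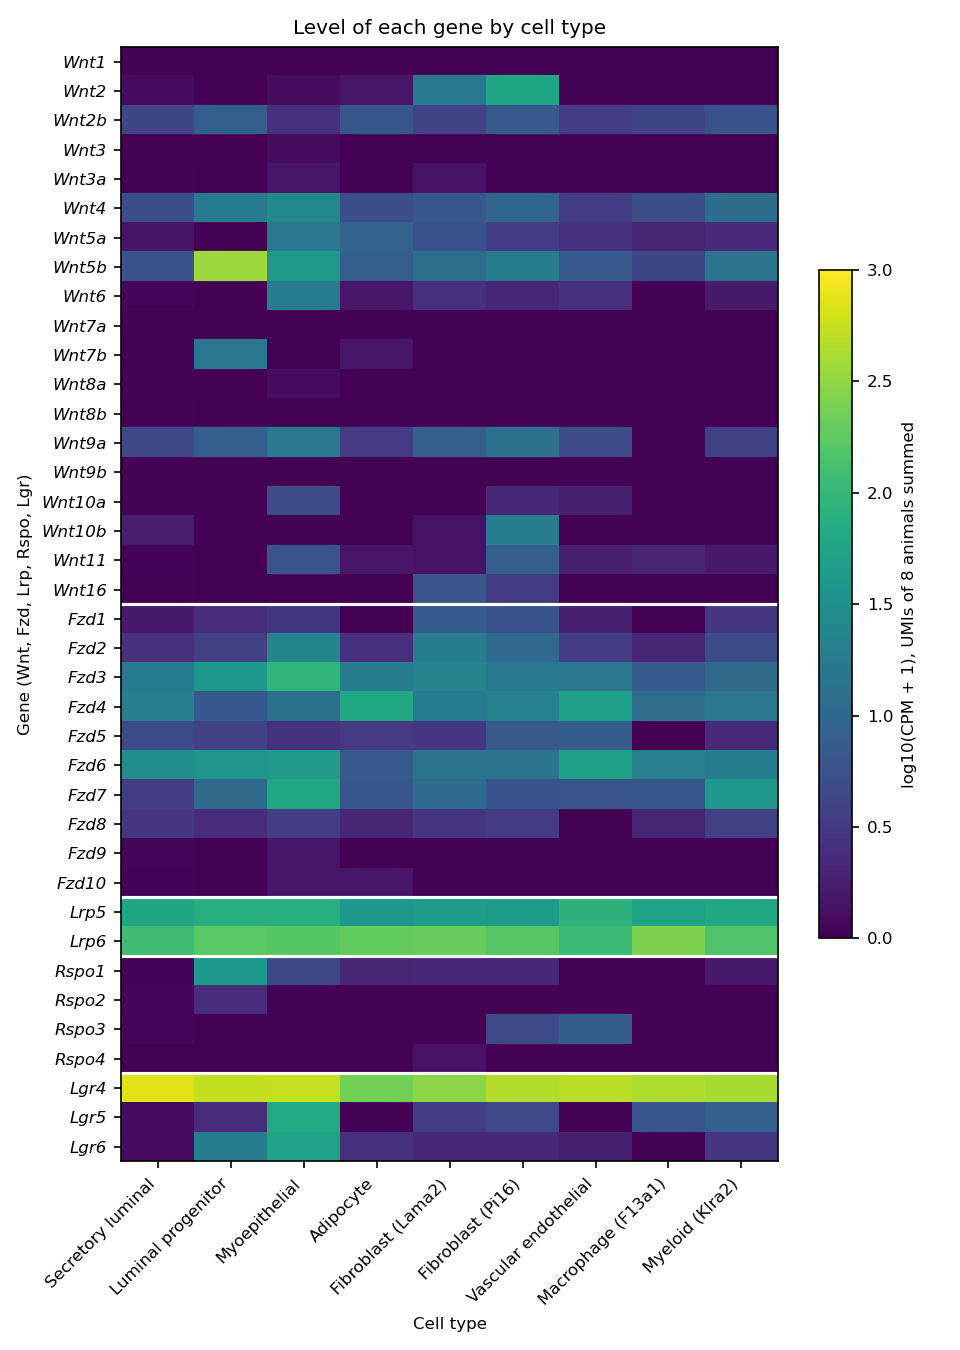
Level of each of the 38 genes (rows, ordered by role) in the 9 tested cell types (columns), as log10(CPM + 1) with all animals pooled. The myoepithelial column is the highest for 9 of the 15 genes that reached 50 UMIs, a limit lower in CPM in types with more UMIs. The share of all genes highest there was not counted. Wnt5b stands out in luminal progenitors.

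To test these levels, each cell type was compared with the secretory luminal nuclei in a single edgeR fit over animals, with the animal as a block. All 8 comparisons share the secretory luminal nuclei. Of the 38 genes, 9 passed the filter on low counts: Wnt5b, Fzd3, Fzd4, Fzd6, Fzd7, Lrp5, Lrp6, Lgr4 and Lgr5. The filter took cell types as groups, so a gene could pass through only those types where it was high. In these 72 gene-by-type pairs, 21 were higher and 20 lower than in secretory luminal nuclei at an adjusted p under 0.05. Over all 6640 genes tested, 25.5% of the gene-by-type pairs were higher and 26.6% lower, and the median log2 difference of the 72 pairs was 0.11. The share called was thus near that of all genes, and what follows concerns where individual genes were high. Without TMM scaling (the correction for differences in RNA composition), the split was 28 higher and 12 lower, beside 33.3% and 15.8% of all pairs. That scaling choice moved the median of all genes by 0.10 to 0.36 on the log2 scale. DESeq2, which scales by its own size factors, called 26 of the same 72 pairs higher and 15 lower; over all pairs it tested, 16.3% were higher and 6.31% lower.

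In the same edgeR fit without a filter on low counts, 35 of the genes entered, and 43 of 280 pairs were higher and 29 lower, beside 11.2% and 14.5% of all pairs. Myoepithelial nuclei had 13 of 35 genes higher and 5 lower (15.7% and 17.0% of all genes), Lama2 fibroblasts 11 and 3 (15.1% and 16.8%), and Pi16 fibroblasts 7 and 3 (9.62% and 13.8%). Luminal progenitors had 4 higher and 2 lower (5.58% and 10.8%), adipocytes 2 and 3 (14.4% and 16.1%), and vascular endothelium 2 and 2 (8.62% and 11.8%). F13a1 macrophages had 2 higher and 7 lower (8.05% and 14.9%), and Klra2 myeloid nuclei 2 and 4 (12.6% and 14.7%). Some of these calls rest on very few UMIs. Lgr5 and Rspo3 in Pi16 fibroblasts each had 3 UMIs in animals labelled knockout and 0 in those labelled floxed. Rspo1 in Lama2 fibroblasts had 1 and 2. The p-values given below from this fit lie close to those of a normal distribution for the log2 difference over its SE. A gene's own spread between animals thus has little weight in them, and very small values do not measure it.

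Wnt5b, a ligand mostly studied for signalling that does not use beta-catenin, was highest in luminal progenitors. In luminal progenitors it lay at 459, 816, 405 and 293 CPM in the animals labelled floxed, and at 354, 189 and 343 CPM in 3 animals labelled knockout. The remaining animal had 9 luminal progenitor nuclei and was left out of tests. The mean was 409 ± 199 CPM (SD, n = 7, 189 to 816), against 42.6 ± 13.8 CPM (n = 8, 27.7 to 68.2) in myoepithelial nuclei, the second-highest type, and 4.97 ± 1.65 CPM in secretory luminal nuclei. Every animal's luminal progenitor level was above every animal's myoepithelial level. The log2 difference from secretory luminal nuclei was 5.89 (SE 0.26, edgeR adjusted p = 3.92e-33) in luminal progenitors and 2.87 (SE 0.26, adjusted p = 5.92e-17) in myoepithelial nuclei. Both calls held in every alternative setting that was run. In luminal progenitors 2 of 9 genes tested were higher, where 16.9% of all genes were. A Wnt5b UMI was found in 85 of 168 luminal progenitor nuclei (50.6%, exact 95% binomial interval 42.8 to 58.4%) and in 2.22% of secretory luminal nuclei. After thinning each nucleus to 1000 UMIs the shares were 26.9% and 0.46%, with median depths of 3731 and 5272 UMIs before thinning. These intervals cover counting error only.

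Because Wnt5b was the only ligand of those with 50 UMIs whose highest type did not overlap the second-highest, the 250 bases upstream of its 3 annotated starts are shown, from RefSeq on GRCm38.p6, an older build than that of the counts. All lie on the minus strand of chromosome 6 and are printed 5′ to 3′, ending at the base before the start. Capitals mark a match to TTCNNNGAA (a STAT factor motif) or to CTTTGA (the core of a TCF/LEF motif), searched on both strands; the 2 motifs do not overlap.
Wnt5b chr6:119544348-119544597: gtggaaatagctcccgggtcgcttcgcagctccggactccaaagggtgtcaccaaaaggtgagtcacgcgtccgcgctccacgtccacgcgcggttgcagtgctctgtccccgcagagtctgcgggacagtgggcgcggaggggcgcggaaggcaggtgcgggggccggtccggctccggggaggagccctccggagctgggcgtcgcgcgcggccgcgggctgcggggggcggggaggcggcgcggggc
Wnt5b chr6:119467212-119467461: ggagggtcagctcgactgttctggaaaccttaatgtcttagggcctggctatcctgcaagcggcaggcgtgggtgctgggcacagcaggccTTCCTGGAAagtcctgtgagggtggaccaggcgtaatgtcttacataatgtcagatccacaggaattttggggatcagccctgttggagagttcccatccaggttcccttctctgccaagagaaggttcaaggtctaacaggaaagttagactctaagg
Wnt5b chr6:119449387-119449636: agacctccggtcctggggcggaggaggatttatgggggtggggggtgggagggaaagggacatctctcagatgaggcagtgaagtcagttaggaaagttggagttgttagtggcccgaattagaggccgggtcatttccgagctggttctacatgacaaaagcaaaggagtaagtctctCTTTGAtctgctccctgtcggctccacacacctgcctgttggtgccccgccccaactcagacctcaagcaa
The first window holds neither motif, the second holds TTCNNNGAA 159 bases before the start, and the third holds CTTTGA 71 bases before it. Of 32851 annotated windows of this length, 7.02% hold TTCNNNGAA and 13.8% hold CTTTGA. Windows were found for 25 of the 38 genes, 28 in all. CTTTGA matched in those of Fzd1, Wnt11 and Wnt5b, and TTCNNNGAA in that of Wnt5b only. A match is a run of letters, and the counts do not show which start was used.

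The other ligands that reached 50 UMIs were highest in myoepithelial nuclei, the contractile cells that surround the alveoli. Wnt4, a ligand known downstream of progesterone, lay at 17.5, 18.4, 15.2 and 53.7 CPM in animals labelled floxed and 25.2, 28.0, 12.7 and 21.2 CPM in animals labelled knockout there. The values overlapped those of luminal progenitors (17.9 ± 17.7 CPM, n = 7). A cluster with hormone-sensing markers, too small for a test, held a higher Wnt4 level and is described under Other observations. Wnt6 averaged 15.6 ± 6.74 CPM (4.20 to 23.3), Wnt9a 15.2 ± 5.55 CPM (5.07 to 22.2) and Wnt5a 13.02 ± 8.24 CPM (0 to 29.2), each over 8 animals. Wnt5a reached 9.52 ± 9.75 CPM in adipocytes, and the 2 types overlapped. In the fit without a count filter, all 4 were higher in myoepithelial than in secretory luminal nuclei, by 2.05 (SE 0.24) for Wnt4, 5.74 (SE 0.45) for Wnt6, 1.67 (SE 0.28) for Wnt9a and 4.16 (SE 0.39) for Wnt5a on the log2 scale. The largest of the 4 adjusted p-values was that of Wnt9a, 2.89e-08.

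Wnt6 and Wnt10a are direct neighbours in the genome (RefSeq gene order, GRCm38.p6), and both were highest in myoepithelial nuclei, on 62 and 16 UMIs. Wnt10a averaged 4.22 ± 3.11 CPM there. Of the other neighbouring pairs, Wnt10b had its 15 highest UMIs in Pi16 fibroblasts while Wnt1 had none in any tested type.

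Fibroblasts were the highest type for Wnt2, Wnt10b, Wnt11 and Wnt16, all under 50 UMIs; these genes and those of the next paragraph on receptors under that limit were chosen after their values were seen. Wnt2, a stromal ligand in several organs, was concentrated in Pi16 fibroblasts, with 27.1, 58.8, 65.6 and 109 CPM in animals labelled floxed and 118, 66.0, 47.4 and 30.6 CPM in animals labelled knockout. The mean of 65.4 ± 33.4 CPM (48 UMIs) compared with 15.3 ± 10.5 CPM (39 UMIs) in Lama2 fibroblasts, and Pi16 fibroblasts were the higher in 8 of 8 animals although the ranges overlapped. Against secretory luminal nuclei the log2 difference was 6.86 (SE 0.44, adjusted p = 6.48e-54) in Pi16 and 4.99 (SE 0.44, adjusted p = 3.73e-28) in Lama2 fibroblasts in the fit without a count filter. Wnt10b (17.8 ± 14.4 CPM) and Wnt11 (6.52 ± 5.63 CPM) were also highest in Pi16 fibroblasts, on 15 and 6 UMIs, and Wnt16 (5.02 ± 1.64 CPM, 13 UMIs) in Lama2 fibroblasts. Wnt11 overlapped its myoepithelial level there (5.17 ± 2.38 CPM, 20 UMIs). In the same fit, ligands that were highest elsewhere were also called higher in fibroblasts than in secretory luminal nuclei: Wnt5a, Wnt5b and Wnt6 in Lama2 and Wnt5b in Pi16 fibroblasts. Counts were low. In Lama2 fibroblasts, animals labelled knockout and floxed gave 3 and 1 UMIs of Wnt6, 6 and 6 of Wnt5a and 18 and 10 of Wnt5b. In Pi16 fibroblasts they gave 7 and 8 of Wnt5b. Wnt7b was found almost only in luminal progenitors, with 10 of its 13 UMIs in tested types and 14.4 ± 13.7 CPM. Wnt2b was spread over all 9 types at 1.53 to 7.09 CPM in the pooled animals. Wnt3, Wnt3a, Wnt8a and Wnt8b had 1 to 5 UMIs over the tested types, and Wnt1, Wnt7a and Wnt9b had 0.

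Among the Frizzleds, Fzd3 and Fzd7 were highest in myoepithelial nuclei. Fzd3, known for its part in cell polarity and axon guidance, lay there at 102, 94.4, 104 and 99.2 CPM in animals labelled floxed and 71.3, 88.1, 101 and 87.1 CPM in animals labelled knockout. Every animal exceeded every luminal progenitor value, the second-highest type (39.4 ± 19.5 CPM, 11.8 to 62.4). The log2 difference from secretory luminal nuclei (16.8 ± 3.87 CPM) was 2.28 (SE 0.19, adjusted p = 3.12e-18). Fzd7 lay at 58.3, 43.8, 96.4 and 80.6 CPM in animals labelled floxed and 39.9, 55.95, 60.2 and 56.5 CPM in animals labelled knockout, against 2.31 ± 0.59 CPM in secretory luminal nuclei (log2 difference 4.43, SE 0.27, adjusted p = 5.59e-26). Secretory luminal nuclei were the lowest of the 9 types for Fzd7. Of the 9 genes tested, 5 were higher in myoepithelial nuclei (Fzd3, Fzd7, Lgr5, Lrp5 and Wnt5b) and 2 lower (Fzd4 and Lgr4), where 29.2% and 32.4% of all genes were. Fzd7 and Lgr5, at a pooled 2.35 and 0.27 CPM in secretory luminal nuclei, entered the test through types where they were high. The filter thus had a part in these counts, which are no test of the 9 genes as a set.

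Fzd7 was also detected in the Klra2 myeloid nuclei, at 37.7 ± 16.6 CPM (18.8 to 74.5, 58 UMIs; log2 difference 3.67, SE 0.34, adjusted p = 5.35e-16). Markers of other types were present in the same nuclei: the 13 fibroblast markers summed to 667 CPM (294 to 1374 over animals, all 13 with a UMI), which was 8.13% of their highest type, and the myoepithelial markers to 346 CPM, 5.86% of theirs. Their part in the Fzd7 level was not tested. Of the 9 genes tested, 3 were higher in these nuclei and 3 lower, beside 28.4% and 27.6% of all genes.

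Fzd4, the receptor for norrin as well as for Wnts, was highest in adipocytes, at 57.1, 87.2, 44.6 and 91.5 CPM in animals labelled floxed and 64.3, 58.4, 57.9 and 41.6 CPM in animals labelled knockout. Vascular endothelial nuclei followed at 51.8 ± 30.9 CPM (20.9 to 119), and the ranges overlapped. Both were above secretory luminal nuclei (18.0 ± 3.34 CPM), by 1.70 (SE 0.22, adjusted p = 1.41e-10) and 1.25 (SE 0.26, adjusted p = 7.40e-05) on the log2 scale. Myoepithelial nuclei were lower, at 12.0 ± 4.75 CPM (log2 difference -0.84, SE 0.26, adjusted p = 0.00346). Fzd6 ran the other way in adipocytes, at 5.58 ± 6.58 CPM against 30.47 ± 4.98 CPM in secretory luminal nuclei (log2 difference -2.43, SE 0.39, adjusted p = 6.52e-08). Its highest type was the vascular endothelium, at 53.5 ± 24.4 CPM (17.9 to 84.9), which overlapped the myoepithelial values (40.2 ± 6.87 CPM) and did not pass the test. In adipocytes 2 genes were higher and 3 lower of 9, beside 35.5% and 30.3% of all genes. In vascular endothelial nuclei 2 were higher and 1 lower, beside 20.3% and 20.2%.

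Fzd2 averaged 22.3 ± 5.32 CPM (15.8 to 30.6) in myoepithelial nuclei and 17.8 ± 10.3 CPM in Lama2 fibroblasts, and these ranges overlapped. In the fit without a count filter both were above secretory luminal nuclei, by 3.37 (SE 0.28, adjusted p = 3.84e-32) and 3.00 (SE 0.33, adjusted p = 3.19e-18). Fzd1, Fzd5, Fzd8, Fzd9 and Fzd10 stayed under 50 UMIs in their highest type, with pooled levels there of 0.51 to 6.69 CPM.

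The Lrp coreceptors varied less between types. Lrp6 lay between 111 CPM (vascular endothelial) and 256 CPM (F13a1 macrophages) in the pooled animals. In F13a1 macrophages the 8 animals ranged from 129 to 330 CPM (mean 243 ± 57.7), overlapping Lama2 fibroblasts (198 ± 32.0). Against secretory luminal nuclei (118 ± 7.29 CPM) the log2 differences were 0.83 (SE 0.14, adjusted p = 7.66e-07) in F13a1 macrophages and 0.55 (SE 0.12, adjusted p = 4.73e-05) in Lama2 fibroblasts. In adipocytes the difference was 0.58 (SE 0.13, adjusted p = 4.88e-05), and it missed the threshold without a count filter (0.34, adjusted p = 0.0547). Lrp5 was pooled at 39.3 CPM in adipocytes and 87.0 CPM in vascular endothelium. The clearest difference was a lower level in adipocytes (40.7 ± 11.5 against 58.2 ± 16.8 CPM, log2 difference -0.59, SE 0.18, adjusted p = 0.00237). In F13a1 macrophages 2 of 9 genes were higher and 3 lower, beside 20.8% and 25.5% of all genes. In Lama2 fibroblasts 4 were higher and 3 lower (29.6% and 31.4%), and in Pi16 fibroblasts 1 and 3 (23.0% and 26.4%). No gene of the 9 passed the test between the fibroblast groups, a contrast added after the data were seen, where 9.94% of all genes did; 2 genes, Lgr4 and Lrp6, were at an unadjusted p under 0.05, with edgeR adjusted p-values of 0.134 and 0.241.

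R-spondins were scarce. Rspo1 had 27 UMIs in luminal progenitors, of which 14 came from 7 of the 13 nuclei of the animal labelled floxed 2. The animals labelled floxed 1 and 3 gave 5 each, floxed 4 gave 0, and the 4 animals labelled knockout gave 3 together. The mean of 61.9 ± 108 CPM (n = 7, 0 to 300) thus rests mainly on 1 animal. Against secretory luminal nuclei the log2 difference was 7.22 (SE 0.61, adjusted p = 6.15e-30) in the fit without a count filter, with 4 UMIs in secretory luminal nuclei. That p-value gives little weight to the spread between animals. Rspo3 had 8 UMIs in vascular endothelium (5.31 ± 9.85 CPM), and Rspo2 and Rspo4 had 6 and 1 UMIs over the tested types.

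**Figure D2:**
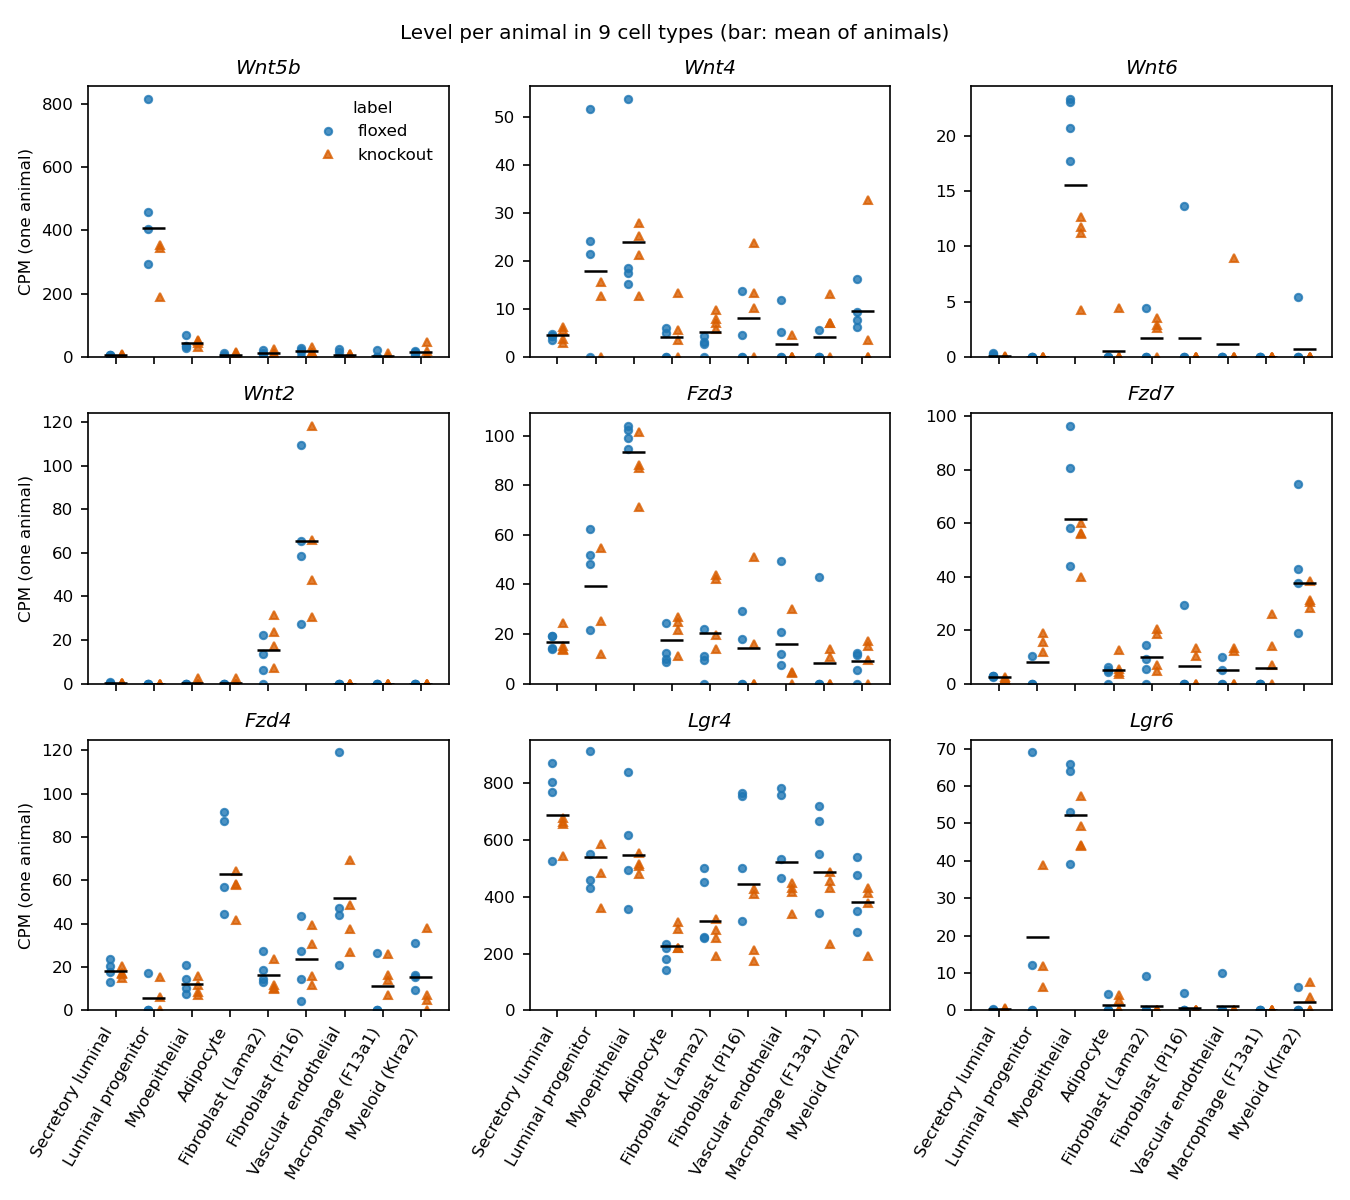
CPM of 9 genes in each tested cell type, with 1 point per animal (circles, labelled floxed; triangles, labelled knockout) and a bar at the mean. Wnt5b is high in luminal progenitors in the 7 animals tested there, Fzd3, Fzd7 and Lgr6 in myoepithelial nuclei, Wnt2 in Pi16 fibroblasts and Fzd4 in adipocytes and vascular endothelium.

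Lgr4, the most widely expressed of the R-spondin receptors in mouse tissues, was highest in secretory luminal nuclei. It lay there at 769, 871, 803 and 524 CPM in animals labelled floxed and 678, 654, 543 and 664 CPM in animals labelled knockout. Myoepithelial nuclei followed at 545 ± 139 CPM, lower in 7 of 8 animals. Lgr4 was lower than in secretory luminal nuclei in all 8 other types, with log2 differences from -0.55 (SE 0.15, adjusted p = 0.000766) in myoepithelial nuclei to -1.63 (SE 0.17, adjusted p = 1.52e-14) in adipocytes. Without TMM scaling the direction stayed the same, but the differences in luminal progenitors (-0.30, adjusted p = 0.172) and myoepithelial nuclei (-0.31, adjusted p = 0.0567) missed the threshold. RNA of secretory cells was present in the other types too. The 4 secretory markers Btn1a1, Xdh, Elf5 and Muc15 stood at 17.2 to 25.6% of their secretory level in adipocytes, where Lgr4 stood at 32.4%. In Lama2 fibroblasts they stood at 41.3 to 50.1% and Lgr4 at 42.2%, and in vascular endothelium at 66.8 to 76.8% and Lgr4 at 69.1%. In myoepithelial nuclei the markers stood at 43.5 to 52.4% and Lgr4 at 76.5%, and in Pi16 fibroblasts at 44.8 to 52.6% and Lgr4 at 63.0%. Klra2 nuclei had the markers at 51.2 to 54.4% and Lgr4 at 56.4%. F13a1 macrophages had them at 50.8 to 59.0% and Lgr4 at 62.0%. Luminal progenitors had them at 57.2 to 195% and Lgr4 at 74.8%. How much of the Lgr4 count outside secretory nuclei came from free RNA was not tested.

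Lgr5 and Lgr6 were nearly absent from secretory luminal nuclei (0.30 ± 0.31 and 0.26 CPM) and highest in myoepithelial nuclei. Lgr5 lay at 64.2, 71.4, 20.3 and 47.5 CPM in animals labelled floxed and 73.4, 68.5, 95.04 and 108 CPM in animals labelled knockout (log2 difference from secretory luminal nuclei 7.16, SE 0.42, adjusted p = 1.76e-24). Lgr6 lay at 64.2, 53.0, 66.0 and 39.3 CPM in animals labelled floxed and 44.1, 57.4, 44.4 and 49.4 CPM in animals labelled knockout (6.82, SE 0.29, adjusted p = 4.92e-120 without a count filter). Lgr6 was also higher in luminal progenitors (19.7 ± 25.4 CPM, 12 UMIs in tested animals; 4.95, SE 0.63, adjusted p = 2.72e-13). Lgr5 was called higher in Klra2 myeloid nuclei, F13a1 macrophages and Lama2 fibroblasts, on 11, 5 and 6 UMIs. Of the 11 UMIs in Klra2 nuclei, 7 were in a single nucleus of the animal labelled knockout 3, and of the 5 in F13a1 macrophages, 3 were in a single nucleus of the animal labelled knockout 2.

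At a finer clustering resolution the myoepithelial nuclei fell into 2 clusters, and these receptors differed between them. The split was looked at after the data were seen and is given without a test. The cluster with the higher levels of contractile genes (led by Myh11, Synpo2 and Acta2) held 314 assigned nuclei, and the other (led by Gm30613) held 622, with at least 23 nuclei per animal in each. Lgr6 stood at 109 ± 23.4 CPM (83.1 to 146, n = 8) in the contractile cluster and 32.1 ± 12.2 CPM (12.3 to 50.5) in the other. Lgr5 ran opposite, at 8.52 ± 7.44 CPM (0 to 17.5) in the contractile cluster and 87.3 ± 31.0 CPM (31.3 to 133) in the other. For both genes the ranges did not overlap, and the order was the same in 8 of 8 animals. Wnt6 (40.3 ± 16.8 against 7.33 ± 6.66 CPM), Fzd7 (101 ± 31.4 against 48.1 ± 16.4 CPM) and Lrp5 (120 ± 35.5 against 64.5 ± 21.3 CPM) were also higher in the contractile cluster in 8 of 8 animals. For Wnt6, Fzd7 and Lrp5 the ranges of the 2 clusters overlapped. How many of all genes kept the same order in 8 of 8 animals was not counted. Fzd3 was at a like level in both (92.8 ± 23.3 and 93.3 ± 16.7 CPM). A nucleus with a UMI of both Lgr5 and Lgr6 was seen 19 times among 936, beside 117 with Lgr5 and 156 with Lgr6, where the product of the shares gives 19.5.

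**Figure D3:**
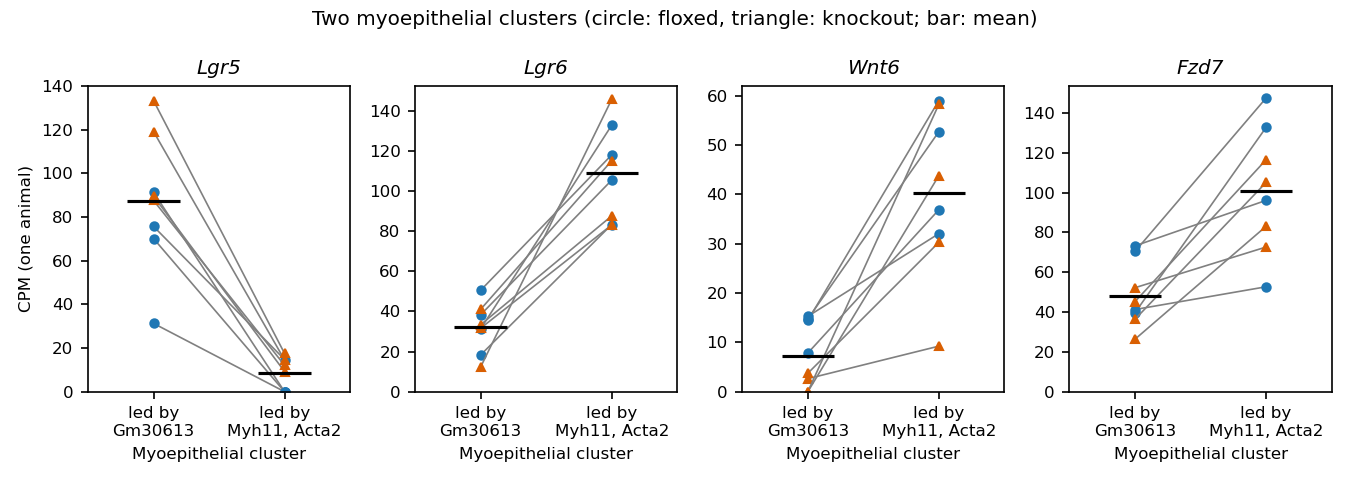
CPM of Lgr5, Lgr6, Wnt6 and Fzd7 in the 2 myoepithelial clusters, with 1 line per animal. Lgr5 is lower in the contractile cluster than in the Gm30613 cluster in all 8 animals, and Lgr6, Wnt6 and Fzd7 are higher there in all 8.

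Of the 41 calls between cell types, 13 were lost when a single animal was left out. Wnt5b in Lama2 fibroblasts (0.99) was lost without floxed 3 (adjusted p = 0.120), knockout 1 (0.0766) or knockout 4 (0.143), Wnt5b in Pi16 fibroblasts (1.62) without floxed 1 (0.0578), and Wnt5b in Klra2 nuclei (1.18) without floxed 3 (0.0595), knockout 1 (0.104) or knockout 4 (0.176). Fzd3 in F13a1 macrophages (-1.60) was lost without floxed 2 (0.0766), floxed 4 (0.0991) or knockout 4 (0.0741). Fzd3 in Klra2 nuclei (-0.99) was lost without any of 5 animals (floxed 1, 2 and 4, knockout 1 and 3; 0.0547 to 0.107). Fzd6 in Pi16 fibroblasts (-1.41) was lost without floxed 1 (0.0669), and in F13a1 macrophages (-0.96) without floxed 1, 2 or 4 or knockout 4 (0.0616 to 0.0680). Fzd7 in luminal progenitors (1.73, 7 UMIs) was lost without floxed 3 or any knockout animal (0.0520 to 0.349). Lgr5 in Lama2 fibroblasts (2.32) was lost without floxed 1 (0.117) or knockout 4 (0.420), and in F13a1 macrophages (3.43) without knockout 2 (0.204). Lrp5 in Pi16 fibroblasts (-0.71) was lost without knockout 4 (0.0548). Lrp5 was lost in myoepithelial nuclei (0.28) without floxed 3 or knockout 1, 2 or 3 (0.0962 to 0.394), and in vascular endothelium (0.39) without any of floxed 1, 3 and 4 and knockout 1, 2 and 3 (0.0556 to 0.182). Of the other 28 calls, 23 held without each of the 8 animals in turn. The remaining 5 held in the 7 fits that tested them: Fzd7 in myoepithelial, Klra2 and Lama2 fibroblast nuclei missed the count filter without floxed 1, and Lgr5 in myoepithelial and Klra2 nuclei missed it without knockout 1.

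Across the 9 types, the gene whose pooled log2(CPM + 1) profile was most like that of Fzd3 was Lgr6 (Pearson r = 0.91 over 9 types), and Lgr6 was also nearest to Wnt4 (0.88) and Wnt5b (0.79). Fzd6 was nearest to Lrp5 (0.93), Lgr4 to Fzd6 (0.82) and Fzd7 to Lgr5 (0.82). Fzd4 and Lrp6 had no close match (highest r 0.38 with Wnt5a and 0.29 with Lgr5). The 9 points share 1 library and differ in depth, so these values are descriptions only.

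The second comparison set the animals labelled knockout against those labelled floxed within each type, in 43 gene-by-type pairs of 16 genes. No pair passed an edgeR adjusted p under 0.05, where 2 of 41034 pairs of all genes did (0.00487%, made of 0.0148% of genes in myoepithelial nuclei, 0.0411% in vascular endothelium and 0% elsewhere). The smallest adjusted p was 0.529. At an unadjusted p under 0.05 there were 7 of the 43 pairs by edgeR, beside 6.77% of the pairs of all genes. DESeq2 made 0 calls in 210 pairs (0.0172% of all pairs), with 8 at an unadjusted p under 0.05 (1.64% of all pairs). The estimates were lower in animals labelled knockout in 29 pairs and higher in 14, with a median log2 difference of -0.14. Over all genes the median by type lay between -0.011 (Klra2 nuclei) and 0.0062 (luminal progenitors), and the share of lower estimates was not counted. The pairs are not independent, since Lgr4 gave 8 of the 29, read in different types of the same animals. The split is therefore a description only. The median width of the 95% intervals was 1.01 on the log2 scale. The p-values of the filtered edgeR fit measure the spread between the 8 animals.

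The pair with the smallest unadjusted p was Lgr4 in Pi16 fibroblasts, at 502, 764, 754 and 315 CPM in animals labelled floxed and 426, 211, 411 and 173 CPM in animals labelled knockout, with overlap between the groups (log2 difference -0.95, SE 0.32, edgeR adjusted p = 0.996). In vascular endothelium Lgr4 did not overlap, at 784, 758, 533 and 464 against 429, 416, 340 and 449 CPM (-0.66, SE 0.24, edgeR adjusted p = 0.992). The Lgr4 estimate was negative in 8 of 9 types and positive in adipocytes (0.39, SE 0.22, edgeR adjusted p = 0.641). In 3 of the 8, the sign turned when 1 animal was left out: luminal progenitors (0.038 without floxed 4), myoepithelial nuclei (0.053 without floxed 2) and Klra2 nuclei (0.044 without floxed 1, 0.026 without knockout 3). In secretory luminal nuclei, where 39690 UMIs stand behind it, it was -0.27 (SE 0.19, 95% interval -0.65 to 0.10, edgeR adjusted p = 0.703). Lgr5 in myoepithelial nuclei had the smallest adjusted p, with a higher mean in animals labelled knockout (86.3 ± 18.6 against 50.9 ± 22.7 CPM, log2 difference 0.67, SE 0.26, edgeR adjusted p = 0.529). The groups overlapped, since the animal labelled floxed 2 (71.4 CPM) exceeded the one labelled knockout 2 (68.5 CPM).

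Groups did not overlap in 2 of the 43 pairs, beside 3.53% of the pairs of all genes. These were Lgr4 in vascular endothelium and Fzd8 in secretory luminal nuclei (1.64 ± 0.42 floxed against 2.49 ± 0.20 CPM knockout, edgeR adjusted p = 0.584). Outside these pairs, Wnt6 in myoepithelial nuclei had too few UMIs for the filter. It lay at 23.3, 23.0, 17.8 and 20.7 CPM in animals labelled floxed and at 4.20, 11.2, 12.7 and 11.8 CPM in animals labelled knockout, without overlap (log2 difference -1.10 without a count filter, edgeR adjusted p = 0.573). This is 1 of 210 pairs read without a filter. For the pairs named from it, that fit gave little weight to a gene's own spread between animals. The 3.53% covers only pairs that passed the filter, so how often groups part among the 210 was not counted. Rspo1 in luminal progenitors had the smallest p without a filter (24 UMIs floxed against 3 knockout, log2 difference -3.07, edgeR adjusted p = 0.0605); 14 of the 24 came from 1 animal. Of the 15 pairs of 210 at an unadjusted p under 0.05 in that fit, 8 were higher and 7 lower in animals labelled knockout. Of all genes, those under 0.05 were 1113 of 17650 in adipocytes, 1124 of 19770 in myoepithelial and 1625 of 23876 in secretory luminal nuclei. In Lama2 and Pi16 fibroblasts they were 782 of 18978 and 616 of 16104. Luminal progenitors had 588 of 15133 and vascular endothelium 759 of 17008. F13a1 macrophages had 580 of 16254 and Klra2 nuclei 833 of 17955. Fzd3 in Lama2 fibroblasts was among the higher ones (43 UMIs knockout against 11 floxed, log2 difference 1.58, edgeR adjusted p = 0.565), as was Lgr5 in Klra2 nuclei (10 against 1 UMIs, 3.23, edgeR adjusted p = 0.629), where 7 UMIs were in 1 nucleus. Wnt5a in adipocytes was among the lower ones (2 against 13 UMIs, -2.87, edgeR adjusted p = 0.217). Wnt5b in luminal progenitors averaged 493 ± 226 CPM in 4 animals labelled floxed and 296 ± 92.2 CPM in 3 labelled knockout (log2 difference -0.69, SE 0.34, edgeR adjusted p = 0.934).

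**Figure D4:**
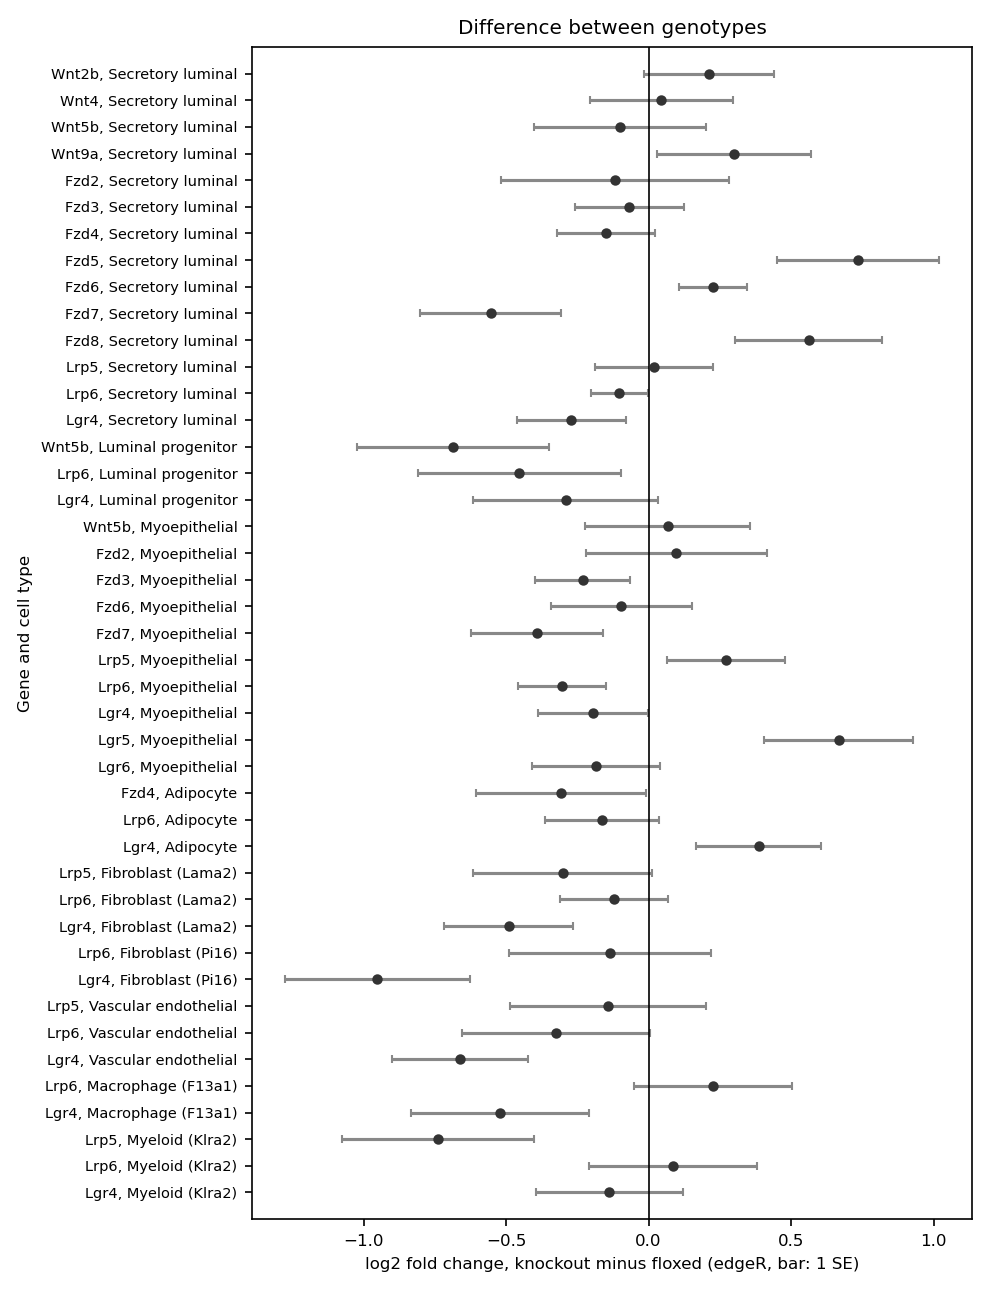
Log2 difference between animals labelled knockout and labelled floxed for the 43 gene-by-type pairs, with bars of 1 SE. Estimates lie on both sides of 0, with 29 below it, 8 of them for Lgr4, and no pair passed the adjusted test.

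To set these genes in their pathway, 67 other Wnt pathway genes were listed by role, of which 29 passed the filter in the comparison between cell types. In myoepithelial nuclei 17 were higher and 5 lower than in secretory luminal nuclei, beside 29.2% and 32.4% of all genes. In Lama2 fibroblasts 17 were higher and 9 lower (29.6% and 31.4%). Of the other receptors and carriers, 9 of 9 were higher in both types and 7 of 9 in adipocytes. The filter again took cell types as groups. Genes scarce in secretory luminal nuclei could thus enter only through types where they were high. The filter had a part in these counts and in those of the next paragraph, which are no test of the listed genes as a set. The 3 with the largest differences in myoepithelial nuclei were Ror1 (224 ± 25.6 CPM, log2 difference 6.37, SE 0.20), Reck (51.7 ± 16.5 CPM, 5.57, SE 0.26) and Ror2 (14.7 ± 6.89 CPM, 5.54, SE 0.42). Ror1 and Ror2 are receptor tyrosine kinases that bind Wnt5a, and Reck is a membrane protein that aids Wnt7 signalling at Frizzleds. In Lama2 fibroblasts they were Ror2 (107 ± 19.6 CPM, 8.47, SE 0.34), Ror1 (738 ± 152 CPM, 8.10, SE 0.20) and the glypican Gpc3 (172 ± 53.3 CPM, 7.27, SE 0.28). In Pi16 fibroblasts, where 13 were higher and 6 lower (23.0% and 26.4% of all genes), they were Ror2 (8.27), Gpc3 (7.40) and Reck (6.77).

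In adipocytes 14 of the 29 were higher and 8 lower (35.5% and 30.3% of all genes). They were led by Tspan12, a membrane protein that works with Fzd4 in norrin signalling (275 ± 69.0 CPM against 0.68 CPM in secretory luminal nuclei, log2 difference 8.38, SE 0.22) and the Wnt antagonist Apcdd1 (76.8 ± 42.7 CPM, 8.00, SE 0.43), then Ror2 (3.54, on 6 UMIs). Tspan12 was higher in 7 of the 8 types, F13a1 macrophages being the exception. Vascular endothelium had 9 higher and 4 lower (20.3% and 20.2%), led by Tspan12 (50.0 ± 24.9 CPM, 5.85, SE 0.34), Ror2 (3 UMIs) and Reck (11 UMIs). Luminal progenitors had 14 higher and 3 lower (16.9% and 18.8%), led by Tspan12 (19.1 ± 15.7 CPM, 4.13), the planar polarity gene Vangl1 (50.2 ± 30.6 CPM, 4.13) and Ror1 (61.5 ± 53.2 CPM, 4.07). Klra2 myeloid nuclei had 9 higher and 10 lower (28.4% and 27.6%), led by Ror2, Ror1 and Gpc3 on 10, 44 and 18 UMIs, which also led in Lama2 fibroblasts. Fibroblast markers stood at 8.13% of their highest level in these myeloid nuclei, and their part in these calls was not tested. F13a1 macrophages had 0 higher (1 at an unadjusted p under 0.05) and 12 lower by edgeR (20.8% and 25.5% of all genes), while DESeq2, which read 51 of the listed genes there, called 15 higher (13.8% of all genes). Of the 8 listed target genes, such as Axin2 and Nkd1, none passed the filter, so these data give no value for them in the test. Between genotypes 0 of 156 pairs of these genes passed the edgeR test (0.00487% of all pairs), 10 had an unadjusted p under 0.05 (6.77% of all pairs), and no call came from the 434 pairs read by DESeq2.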

How the data were processed

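RNA of nuclei from 8 mice was measured in 1 pooled droplet library, with a second library of hashtags. The deposited values are raw UMI counts per gene and nucleus and, for hashtags, read counts per UMI, neither normalized; 61.4% of hashtag UMIs rested on 1 read. The reads had been processed by the authors with Cell Ranger 7.2.0 and fastp on the build GRCm39, per the submitters' processing notes, which name no annotation release.

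Nuclei with at least 500 UMIs, 300 genes and under 5% mitochondrial UMIs were kept. Animals were called by HTODemux (Seurat 5.3.0) on 9 of 10 hashtags at the 0.99 quantile; 2041 hashtag doublets were removed, and Scrublet made 0 calls and was not relied on. The 20854 barcodes kept were all present in the hashtag library. Clustering (scanpy 1.11.5, 2000 variable genes without the 38 genes, 30 components, Leiden resolution 0.5) gave types named by at least 3 markers at least 2-fold above all other nuclei (1.5-fold for secretory luminal). Counts were summed per animal and type with at least 10 nuclei, and tested with edgeR 4.0.16 (quasi-likelihood, TMM, filterByExpr, Benjamini-Hochberg over all genes), after a check on simulated counts. DESeq2 1.42.0, no filter, no TMM scaling, other hashtag, doublet, depth and clustering settings, and leaving out each animal were alternatives. Replicate numbers of the hashtags were not taken to pair the animals. Members and lists were chosen with earlier results of these data known. Genes with 50 UMIs in their highest type were described individually, and of the other pathway genes the 3 with the largest log2 difference per type. Assigned nuclei were deeper than unassigned ones (median 5272 against 3274 UMIs in secretory luminal nuclei).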

Additional observations from a re-analysis of the deposited data

Results flagged for a closer look

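In myoepithelial nuclei Wnt4 lay at 53.7 CPM in the animal labelled floxed 4, far from the other 3 animals of that group (15.2 to 18.4 CPM). It was the only such value among 29 groups of 4 animals tested, and chance alone sets apart about 1 group in 20.

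A further hashtag, named only as an unknown sample, marked 277 nuclei that enter no comparison. Of the 279 nuclei in the cluster with neuronal genes (led by Nrg3), 240 carried it. In these 277 nuclei, 10 of the 38 genes had at least 3 UMIs and a level above that in the nuclei of the 8 animals, and 6 were below it (exact 95% Poisson intervals apart, counting error only). Rspo1 stood at 20.2 CPM (33 UMIs) against 0.72 CPM, Lgr5 at 15.9 CPM (26 UMIs) against 4.31 CPM, Fzd3 at 48.9 CPM (80 UMIs) against 20.7 CPM and Wnt5b at 18.9 CPM (31 UMIs) against 10.9 CPM. Wnt3 stood at 6.11 CPM on 10 UMIs, where the 8 animals together had 1 UMI. Rspo2 and Rspo3 each stood at 4.89 CPM (8 UMIs), Fzd1 at 3.67 CPM (6 UMIs), and Wnt8b and Fzd9 each at 1.83 CPM (3 UMIs). The 6 lower genes were Lgr4 (85.5 against 651 CPM), Lrp6 (81.9 against 128), Lrp5 (7.33 against 57.0), Fzd6 (3.67 against 28.7), Fzd4 (3.67 against 18.9) and Fzd7 (2.44 against 6.93).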

How the results depend on the processing

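Calls between genotypes were 0 in the edgeR fits and with DESeq2 under every alternative run, with 1 to 15 pairs at an unadjusted p under 0.05. With the replicate number as a block there were also 0 calls, with 5 pairs at an unadjusted p under 0.05; over all genes the block gave 57 calls against 2, of which 34 were in myoepithelial nuclei and 21 in adipocytes. All 4 same-numbered pairs had a correlation of deviations over 0.1 in 0 of 8 types and over 0 in 2 (range -0.30 to 0.40), so the numbers were not taken to pair the animals. The 41 calls between cell types (21 higher, 20 lower) became 91 with DESeq2 (76 higher and 15 lower, beside 16.3% and 6.31% of all pairs), which tested more genes and whose log2 differences lay 0.15 to 0.21 above those of edgeR in the median gene of the lists, 24 with a hashtag rule based on ratios (13 higher, 11 lower), which left 204 to 2589 nuclei per animal, and 72 without a count filter (43 higher). Without TMM scaling 12 were lower. Leaving out each animal gave 32 to 43 calls, 13 to 23 higher and 17 to 21 lower, in 64 to 80 pairs that passed the filter. The 13 came without the animal labelled knockout 1, with 64 pairs. The shares of all genes under the ratio rule, without each animal and with the block at an unadjusted p under 0.05 are not given here. Those counts thus do not tell a change of these genes from a change of all genes. Under the ratio rule 2 calls reversed, Lgr5 in Lama2 fibroblasts (-1.88) and in F13a1 macrophages (-1.90). Among the log2 differences between genotypes, none of which had passed, Lgr4 changed sign in Klra2 nuclei without the highest 5% of Scrublet scores (0.061). It also did so when animals were left out: without floxed replicate 4 in luminal progenitors (range -0.48 to 0.038), without floxed replicate 2 in myoepithelial nuclei (-0.37 to 0.053), and without floxed replicate 1 or knockout replicate 3 in Klra2 nuclei (-0.27 to 0.044, with 0.026 for the latter). The cause was not tested. Over all alternatives, single calls between types kept their side of the threshold in 587 values and missed it in 83. Counted by call, 19 of the 41 held in every alternative that tested them. Depth limits the 23 genes under 50 UMIs. All 15 shares of nuclei with a UMI fell after thinning. Thinning removes UMIs, so that fall was largely fixed beforehand and tests nothing.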

Other observations

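A small cluster led by Slc35f3, with 8 markers of hormone-sensing luminal cells, held 37 assigned nuclei, too few per animal for a test. Wnt4 stood there at 154 CPM over the pooled animals (25 UMIs, exact 95% interval 99.4 to 227 CPM, counting error only), with a UMI in 17 of 37 nuclei. That was above its 24.0 ± 13.03 CPM in myoepithelial nuclei, the highest of the 9 tested types. Fzd4 in the 34 assigned pericyte and smooth muscle nuclei stood at 51.9 CPM (13 UMIs, interval 27.6 to 88.7 CPM), beside 62.9 ± 18.0 CPM in adipocytes.

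Within secretory luminal nuclei, Lgr4 was at a like level in the 4 clusters (650 to 716 CPM, with SDs of 93.2 to 120 over 8 animals). Wnt5b stood at 2.95 ± 1.52 CPM in the cluster led by Plpp4, at 4.50 ± 2.35 CPM in that led by Slc28a3, at 11.2 ± 8.97 CPM in that led by Scd3 and at 12.9 ± 7.85 CPM in that led by the proliferation gene Top2a. The animals' ranges overlapped among all 4 (0 to 4.45, 1.19 to 8.11, 2.72 to 27.4 and 1.398 to 23.6 CPM).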
